A study of Mus musculus with 10 samples.

Results

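The secreted Wnt inhibitors are extracellular proteins that hold Wnt ligands or the Wnt co-receptors back from signalling. The 10 genes examined were chosen by name, as the rows of the count table for Sfrp1, Sfrp2, Sfrp4, Sfrp5, Frzb, Dkk1, Dkk2, Dkk3, Wif1 and Notum. Of these, 9 had a row among the 18594 genes of that table. Dkk1, a secreted blocker of the Lrp5 and Lrp6 co-receptors, had none, and the authors' FPKM table listed it at 0 in all 10 libraries.

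RNA was sequenced from sorted or isolated cells of mouse intestine in 10 libraries of 4 groups. The Foxl1 positive group (n = 3) was sorted from Foxl1Cre mice, with Rosa-YFP as the reporter in replicates 1 and 2 and Rosa-mTmG in replicate 3. The Foxl1 negative group (n = 3) came from Foxl1Cre; Rosa-mTmG mice. The Lgr5 positive group (n = 2) carried the genotype spelled Lr5-EGFP-IRES CreERT2 in the labels, with 1 male and 1 female library. Strain background was mixed in those groups. The Differentiated epithelium group (n = 2) was wild type C57BL/6J, so strain and allele differ along with cell type. The Rosa reporters are switched on by Cre under Foxl1 control and stay on afterwards. They mark cells with present or past Cre activity and the descendants of such cells. EGFP is driven by the Lgr5 locus and marks cells by that gene's activity. The design text names 3 mice for the mesenchymal sorts without assigning an animal to each library, and gives no ages. P-values therefore measure the spread between these libraries, some of which may be technical.

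Wnt ligands carry a lipid that fits into a groove of the Frizzled receptors, while the co-receptors Lrp5 and Lrp6 bind another face of the ligand. Secreted Frizzled-related proteins (Sfrp1, Sfrp2, Sfrp4, Sfrp5 and Frzb) have a Frizzled-like domain that binds Wnts, and Wif1 binds Wnts through a domain of its own. Dkk1 and Dkk2 bind Lrp5 and Lrp6, Dkk3 is a divergent relative whose place in Wnt signalling is less settled, and Notum is an enzyme that removes the lipid from the ligand. In the intestine, Wnt signalling maintains the Lgr5-expressing stem cells of the crypt base, and mesenchymal cells beneath the epithelium are a source of Wnts.

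The start regions are shown for 4 inhibitors that differed in where they were detected: Frzb and Dkk2, with over 3 counts in Foxl1 positive libraries and no others, Wif1, with over 3 counts in both mesenchymal and epithelial libraries, and Sfrp5, whose level was highest in Lgr5 positive cells. The RefSeq table for build GRCm38.p6 matched 6 of the 10 members. Each sequence is the 250 bases before the annotated start, 5′ to 3′ on the gene's strand. Capitals mark matches to the motifs searched on both strands.
Frzb: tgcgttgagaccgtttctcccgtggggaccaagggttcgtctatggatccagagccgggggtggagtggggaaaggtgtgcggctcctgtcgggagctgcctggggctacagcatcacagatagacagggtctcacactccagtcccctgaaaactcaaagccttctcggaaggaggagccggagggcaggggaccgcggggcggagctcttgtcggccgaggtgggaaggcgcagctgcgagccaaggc
Dkk2: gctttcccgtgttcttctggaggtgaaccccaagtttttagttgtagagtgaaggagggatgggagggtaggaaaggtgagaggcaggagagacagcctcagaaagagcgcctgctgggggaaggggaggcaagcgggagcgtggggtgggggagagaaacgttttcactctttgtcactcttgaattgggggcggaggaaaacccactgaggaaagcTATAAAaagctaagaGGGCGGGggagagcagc
Wif1: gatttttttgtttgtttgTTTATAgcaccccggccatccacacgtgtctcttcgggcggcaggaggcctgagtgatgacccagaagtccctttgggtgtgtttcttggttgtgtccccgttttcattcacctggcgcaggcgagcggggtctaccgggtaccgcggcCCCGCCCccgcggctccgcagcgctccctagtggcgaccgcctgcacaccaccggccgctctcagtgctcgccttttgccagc
Sfrp5: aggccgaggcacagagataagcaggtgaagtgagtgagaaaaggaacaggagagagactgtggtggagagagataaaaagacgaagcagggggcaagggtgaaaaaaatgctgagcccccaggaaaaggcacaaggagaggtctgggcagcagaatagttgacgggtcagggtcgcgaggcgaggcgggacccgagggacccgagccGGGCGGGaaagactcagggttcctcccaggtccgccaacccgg
These stretches lie at chr2:80447397-80447646 (minus strand) for Frzb, chr3:132085042-132085291 (plus) for Dkk2, chr10:121033754-121034003 (plus) for Wif1 and chr19:42202253-42202502 (minus) for Sfrp5. The GC content was 64.4% for Frzb, 55.6% for Dkk2, 62.8% for Wif1 and 59.6% for Sfrp5, against a median of 52.4% over all 32851 promoters of the same length. The TATA box letters TATAAA, found in 12.4% of all promoters, occurred in Dkk2 with the first letter 32 bases before the start and in Wif1, on the opposite strand, 232 bases before it. The SP/KLF letters GGGCGGG, found in 23.4% of all promoters, occurred once each in Dkk2, Wif1 (opposite strand) and Sfrp5. The TCF/LEF letters CTTTGAT (3.21% of all promoters), the forkhead letters TGTTTAC (3.17%) and the GLI motif GACCACCCA (0.225%) were not in the window of any of the 6 matched members. These matches describe letters in the window and not binding.

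The libraries differed in depth and content. Total counts ranged from 4368332 to 11167676 in Foxl1 positive, 1311205 to 13440838 in Foxl1 negative, 46415489 to 99628145 in Lgr5 positive and 79516088 to 80910717 in Differentiated epithelium libraries. Foxl1 negative libraries had counts for 1992, 4097 and 5966 genes, against 14332 to 14817 in Foxl1 positive libraries. Of 306 genes with at least 100 CPM (counts divided by the scaled library total in units of 1e6) in all 7 libraries of the other groups, 55.2%, 27.8% and 11.8% were at 0 in Foxl1 negative replicates 1, 2 and 3, so a 0 in those libraries is weak evidence of absence. Foxl1 itself was at 0.155, 31.0 and 11.6 CPM in Foxl1 positive replicates 1, 2 and 3, and at 0 in the Foxl1 negative libraries. Foxl1 RNA was thus near 0 in Foxl1 positive replicate 1, although a Cre reporter does not require present Foxl1 RNA. The other telocyte markers, such as Gli1 at 23.7 CPM, were present in that library. Run codes in the labels place the Foxl1 negative libraries in 1 run and lane and give every other library a run of its own, so run and group cannot be told apart. The tissue label reads intestine mesenchyme for every library, yet the 8 mesenchyme markers (Col1a1, Dcn, Vim and others) summed to only 8.07 and 12.1 CPM in Lgr5 positive and 8.33 and 8.78 CPM in Differentiated epithelium libraries.

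The inhibitor with the largest share differed between mesenchymal and epithelial libraries. By the authors' FPKM values, which are per transcript length and allow genes to be compared within a library, Sfrp1 supplied 77.3% of the summed inhibitor FPKM in Foxl1 positive replicate 1 and 46.8% in replicate 3. Dkk3 led in replicate 2 with 54.5%. Dkk3 also led in Foxl1 negative replicate 3, with 97.3%. Sfrp5 supplied 99.5% and 96.6% in the Lgr5 positive libraries, and Notum 62.7% and 62.8% in the Differentiated epithelium libraries. The sums behind these shares differed widely. They were 55.4, 24.8 and 191 FPKM in Foxl1 positive, 68.5 FPKM in Foxl1 negative replicate 3 and 10.3 and 7.97 FPKM in Lgr5 positive libraries. In Differentiated epithelium they were only 0.855 and 0.537 FPKM, so Notum led there at the low levels of 0.536 and 0.338 FPKM. Foxl1 negative replicates 1 and 2 together held 1 count over all the inhibitors.

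**Figure D1:**
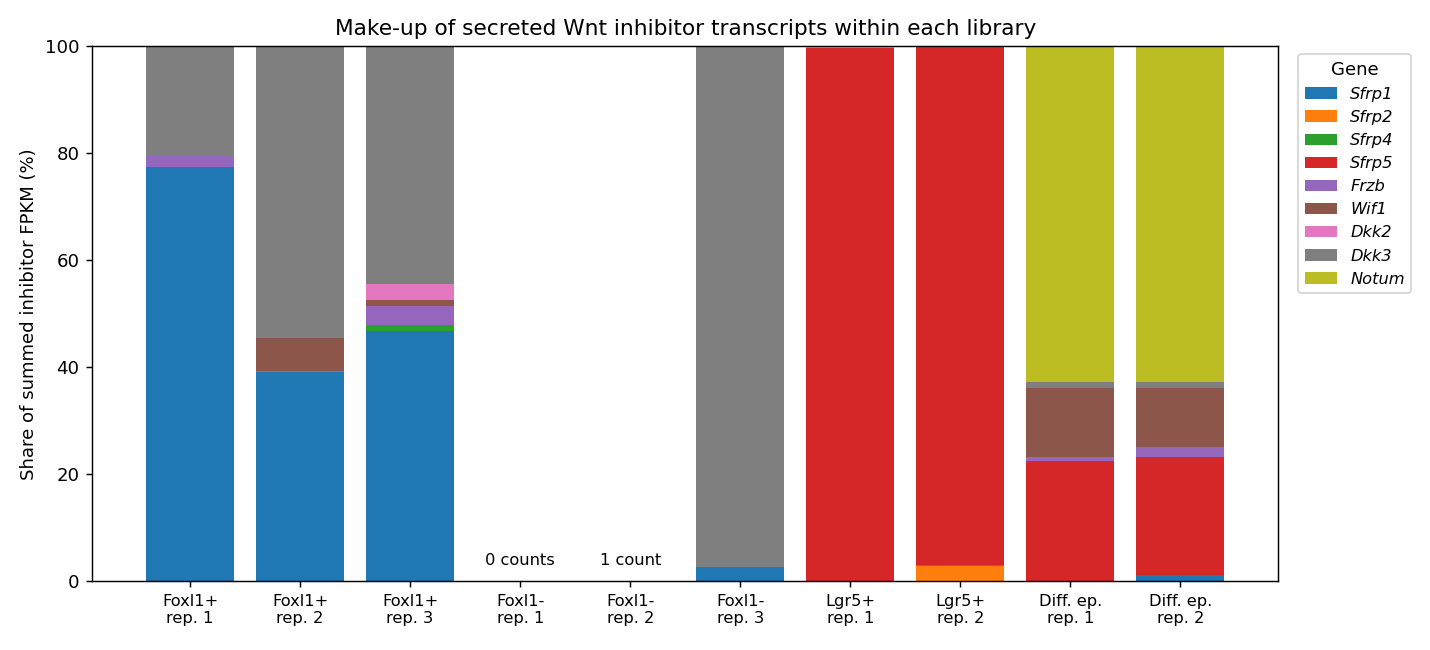
Share of the summed inhibitor FPKM supplied by each gene (vertical axis, %) in each library, for libraries with over 3 inhibitor counts. Sfrp1 and Dkk3 fill most of the Foxl1 positive bars, Sfrp5 fills 99.5% and 96.6% of the Lgr5 positive bars, and Notum fills most of the Differentiated epithelium bars. The Differentiated epithelium bars stand for sums of only 0.855 and 0.537 FPKM.

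Among the Wnt-binding inhibitors, Sfrp1 (mm9 chr8:24521974-24560104, plus strand) had the highest levels. It was at 665, 152 and 916 CPM in Foxl1 positive libraries, and at 0, 0 and 15.5 CPM in Foxl1 negative libraries. It was at 0.121 and 0.0939 CPM in Lgr5 positive and 0 and 0.0740 CPM in Differentiated epithelium libraries; the Differentiated epithelium level rests on 3 counts. Every Foxl1 positive library was above every other library. Group means were 578 ± 389, 5.18 ± 8.97, 0.107 ± 0.0191 and 0.0370 ± 0.0523 CPM (SD, n = 3, 3, 2 and 2, in the order Foxl1 positive, Foxl1 negative, Lgr5 positive, Differentiated epithelium). The last 2 groups do not differ beyond counting error, at a ratio of 2.64 for Lgr5 positive over Differentiated epithelium (95% counting interval 0.754 to 14.1).

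Frzb (chr2:80252127-80287553, minus strand), a Frizzled-related protein also studied in cartilage, was likewise highest in Foxl1 positive cells. It was at 12.1, 0.561 and 45.5 CPM in Foxl1 positive libraries and at 0 in all Foxl1 negative and Lgr5 positive libraries. In Differentiated epithelium it was at 0.0547 and 0.0740 CPM, from 2 and 3 counts. The Foxl1 positive libraries lay above all others, though replicate 2 rests on 5 counts and its level is below the 3-count floor of Foxl1 negative replicate 1, 1.82 CPM.

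Wif1 (chr10:120471060-120537698, plus strand) was at 0, 12.4 and 11.8 CPM in Foxl1 positive libraries and at 0 in Foxl1 negative libraries. It was at 0 and 0.0939 CPM in Lgr5 positive libraries and 0.629 and 0.321 CPM in Differentiated epithelium libraries. Foxl1 positive replicate 1 was the Foxl1 positive library without a Wif1 count, and the group therefore overlaps all others. The floor of 3 counts in that library is 0.233 CPM.

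Sfrp5 (chr19:42272461-42276742, minus strand) ran the other way. It was at 0, 0 and 0.421 CPM in Foxl1 positive libraries, the last from 2 counts, and at 0 in Foxl1 negative libraries. It reached 32.6 and 24.4 CPM in Lgr5 positive libraries and 0.930 and 0.542 CPM in Differentiated epithelium libraries. Both Lgr5 positive libraries stood above every other library, and both Differentiated epithelium libraries above the value of every Foxl1 positive and Foxl1 negative library, although 3 counts in Foxl1 negative replicate 1 would already be 1.82 CPM. Lgr5 itself was at 83.3 CPM in Foxl1 positive replicate 1, against 269 and 375 CPM in the Lgr5 positive libraries, while Sfrp5 had no count in that replicate. Crypt base stem cell markers, Lgr5 among them, summed to 577.5 CPM in that replicate, against 5701 and 7913 CPM in the Lgr5 positive libraries. Paneth cell markers summed to 5825 CPM in the same replicate. The source of this Lgr5 RNA was not tested.

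Sfrp2 and Sfrp4, the other Frizzled-related proteins, were each seen mainly in a lone library. Sfrp2 had 75 counts (0.704 CPM) in Lgr5 positive replicate 2, 1 count in Foxl1 negative replicate 2 and none elsewhere. An antisense gene, Gm26771, overlaps it, and the strand setting of the counting is not given in the sources used here, so reads of the pair cannot be told apart. Sfrp4 was at 0, 0 and 8.84 CPM in Foxl1 positive libraries, had 6 counts in Lgr5 positive replicate 2 and none elsewhere.

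Of the Dickkopf genes, Dkk3 (chr7:119259533-119302571, minus strand) was abundant and Dkk2 (chr3:131748256-131843268, plus strand) was found in 1 library. Dkk3 was at 136, 163 and 669 CPM in Foxl1 positive libraries and 0, 0 and 427 CPM in Foxl1 negative libraries. It was at 0.0202 and 0 CPM in Lgr5 positive and 0.0820 and 0.0493 CPM in Differentiated epithelium libraries, from 1 to 3 counts where above 0. The Foxl1 positive and Foxl1 negative groups overlap, because Foxl1 negative replicate 3 lies between Foxl1 positive replicates 2 and 3. Dkk2 was at 0, 0 and 49.0 CPM in Foxl1 positive libraries and had no count in any of the other 7 libraries. The library with Dkk2 is the Rosa-mTmG one, which also had the highest mesenchyme marker sum, 74000 CPM, against 6470 and 3274 CPM in the Rosa-YFP libraries. Reporter and library cannot be told apart with 1 such library.

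Notum (chr11:120515103-120522151, minus strand), the Wnt lipid esterase, was at 0 in all Foxl1 positive and Foxl1 negative libraries. It was at 0.121 and 0 CPM in Lgr5 positive libraries and at 2.76 and 1.65 CPM in Differentiated epithelium libraries. Both Differentiated epithelium libraries exceeded the value of all others. In Foxl1 positive libraries, 3 counts would be 0.233, 0.337 and 0.631 CPM. The antisense genes Myadml2os and Notumos overlap Notum, so its reads cannot be assigned to a strand here.

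**Figure D2:**
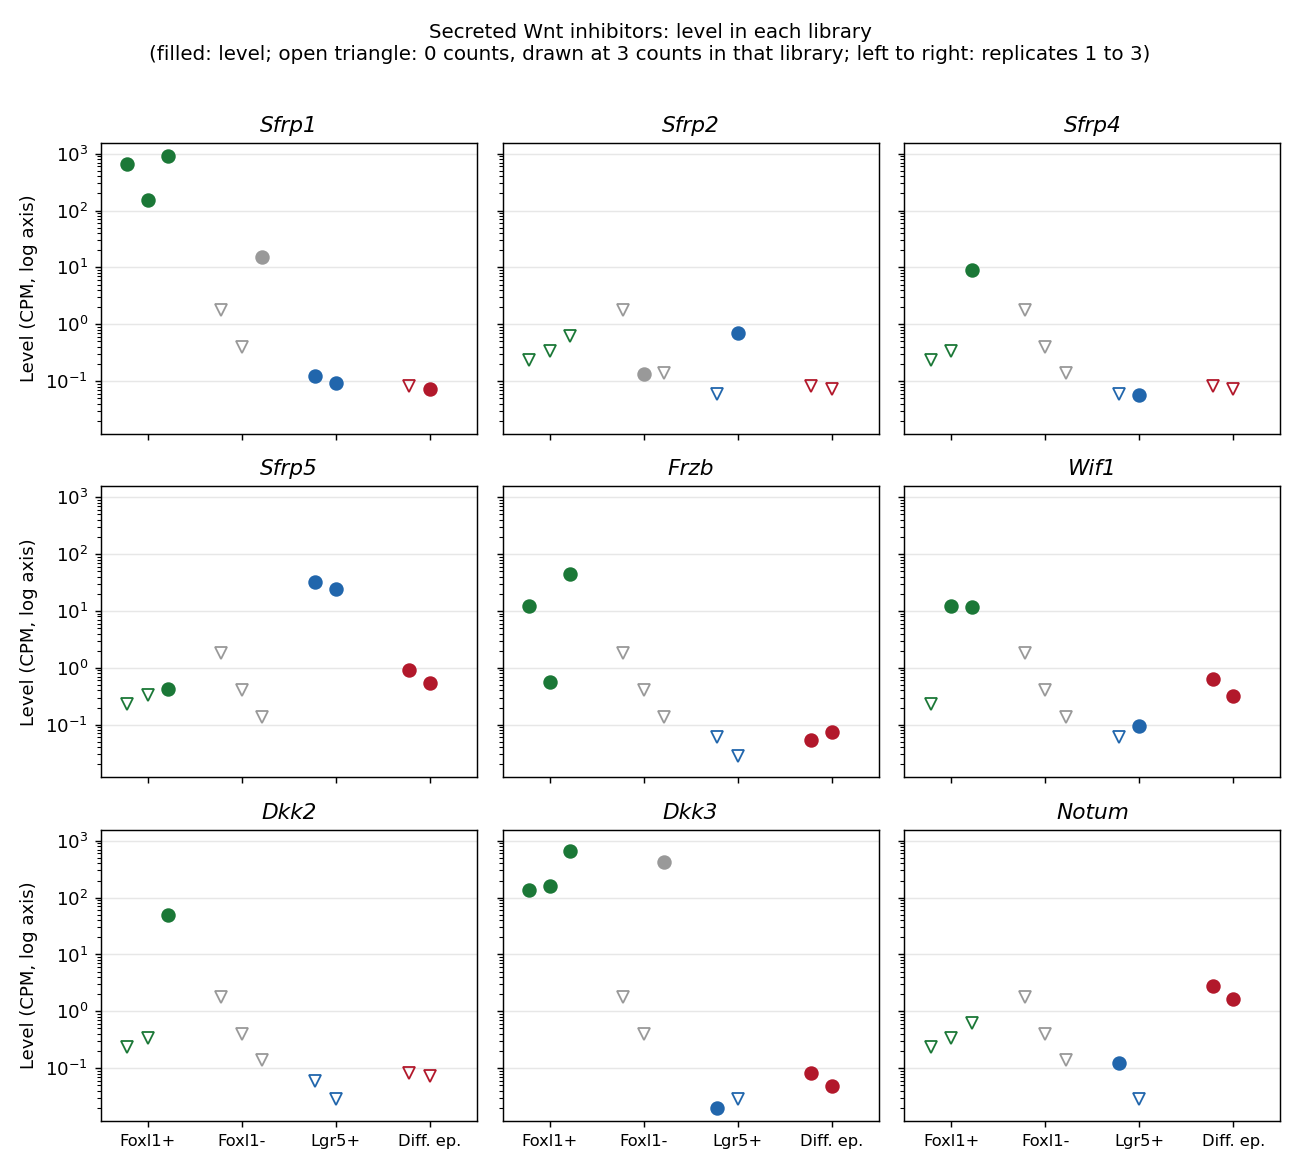
Level of each inhibitor with a row in the count table (CPM, log axis) in each library, by group, with filled points for libraries with a count and open triangles at 3 counts for libraries with none. Sfrp1 and Dkk3 reach their highest values in Foxl1 positive libraries (up to 916 and 669 CPM), Sfrp5 in Lgr5 positive libraries (up to 32.6 CPM) and Notum in Differentiated epithelium libraries (up to 2.76 CPM).

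Foxl1 positive cells were set against Foxl1 negative cells to compare inhibitors within the mesenchymal sorts. Sfrp1 averaged 112-fold higher and Dkk3 2.26-fold higher in Foxl1 positive cells, and neither passed the test. The log2 difference of Sfrp1 was 7.20 ± 3.16 (SE, adjusted p = 0.124) and that of Dkk3 1.57 ± 2.98 (adjusted p = 0.829). The median log2 difference of all genes tested was 3.47, so Dkk3 lay below the typical gene and Sfrp1 above it. No inhibitor gene was called among the 2 that had enough counts for edgeR's quasi-likelihood test (0 of 2 also at an unadjusted p under 0.05), where 42.2% of the 11204 genes tested were called, all of them higher. DESeq2 called 3 of the 4 inhibitors it gave an adjusted p, Sfrp1 (0.00933), Frzb (0.000395) and Wif1 (0.0132), where 54.3% of all genes were called. With limma on log2(FPKM + 1), Sfrp1 (0.0310) was the 1 called of 4 tested, where 31.9% of all genes were called. A further fit kept the Rosa-mTmG library as the sole Foxl1 positive one, so that both groups carried the same reporter. The log2 difference was then 7.84 ± 6.48 for Sfrp1 and 2.62 ± 5.79 for Dkk3. Frzb, Dkk2, Wif1 and Sfrp4 were also higher in that library, with no count in the Foxl1 negative group. With 1 library in a group, this fit cannot decide whether the reporter has a part in these differences. Without Foxl1 negative replicate 3, 63.9% of all genes were called, and Sfrp1 (adjusted p = 0.0131), Dkk3 (0.0135) and Frzb (0.0295) were called as higher. The log2 difference was 15.24 for Sfrp1 and 14.37 for Dkk3 in that fit, where both remaining Foxl1 negative libraries are at 0, so these depend on the fitted offset and are no bound. Leaving out Foxl1 positive replicate 1 gave a call for Wif1 (adjusted p = 0.00425). Frzb was called when Foxl1 positive replicate 2 was left out (0.0137), and likewise when either of the first pair of Foxl1 negative libraries was (0.0455 and 0.0367). The 3-count floor of the pooled Foxl1 negative libraries was 0.0976 CPM. Mean levels in Foxl1 positive libraries were 198-fold above that floor for Frzb, 167-fold for Dkk2, 82.4-fold for Wif1 and 30.2-fold for Sfrp4. The floor covers counting error only, and a 0 in those libraries is weak evidence of absence, so these folds are no lower bounds. Dkk2 and Sfrp4 rest on 1 library.

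Mesenchyme marker sums overlapped between these groups. The markers summed to 6470, 3274 and 74000 CPM in Foxl1 positive and 8082, 12600 and 6740 CPM in Foxl1 negative libraries, with 8 of 8 markers detected in each Foxl1 positive library and 4, 8 and 8 in the Foxl1 negative ones. Foxl1 negative replicate 3, which held nearly all Foxl1 negative inhibitor counts, also had the highest B cell marker sum, 2656 CPM against at most 33.5 CPM elsewhere. Smooth muscle markers summed to 109, 4581 and 0.789 CPM in Foxl1 negative and 1311, 353 and 8150 CPM in Foxl1 positive replicates 1, 2 and 3. Foxl1 negative replicate 1 had 46340 CPM of hepatocyte and 18290 CPM of erythroid markers. Among Foxl1 positive libraries, epithelium markers summed to 2886, 3101 and 161 CPM, Paneth cell markers to 5825, 694 and 76.8 CPM and T cell markers to 398, 407 and 11.4 CPM in replicates 1, 2 and 3. In Foxl1 negative replicates 1, 2 and 3 these sums were 593, 8793 and 652 CPM, 0, 101 and 234 CPM, and 0.605, 0 and 230 CPM. Enterocyte markers summed to 724, 3638 and 31.6 CPM in Foxl1 positive and 10380, 6946 and 766 CPM in Foxl1 negative libraries. Macrophage markers summed to 108.2, 13.02 and 48.6 CPM in Foxl1 positive libraries and had no count in Foxl1 negative libraries. All 3 of those tested were called as higher, beside 42.2% of all genes. The part of these differences in the inhibitor results was not tested. In bulk libraries, fewer cells of a type and less RNA per cell cannot be told apart.

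**Figure D3:**
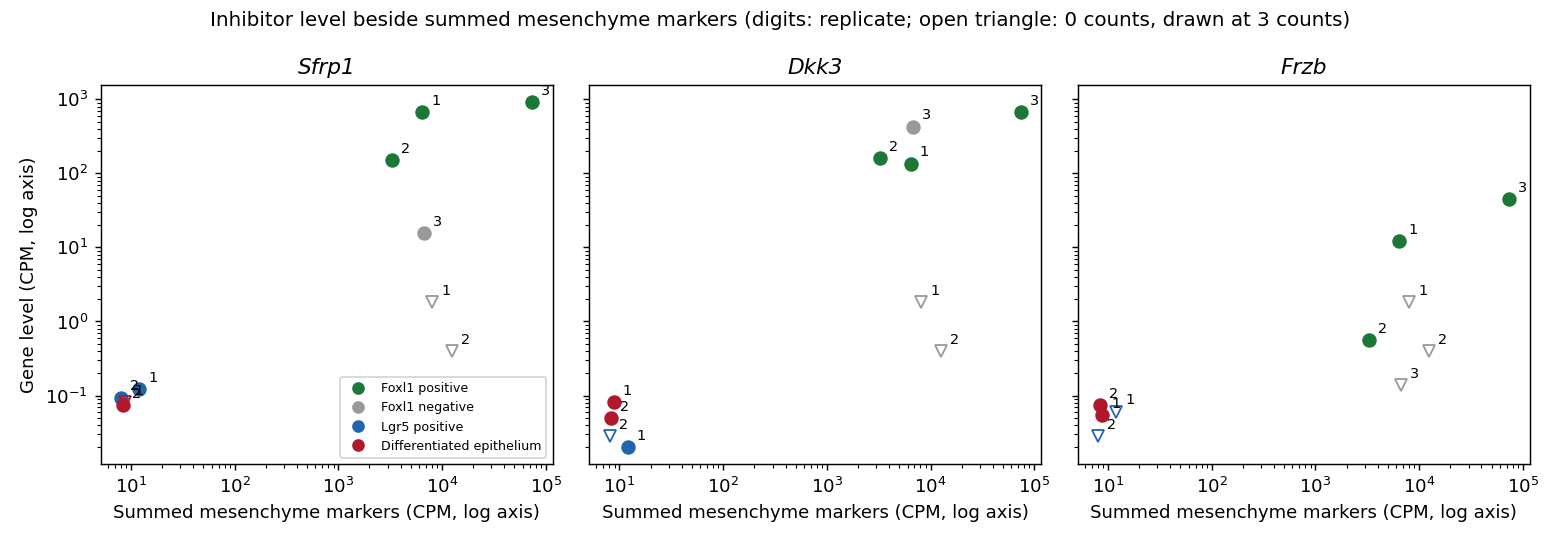
Level of Sfrp1, Dkk3 and Frzb (vertical axis, CPM, log) beside the summed mesenchyme markers (horizontal axis, CPM, log) in each library, with open triangles at 3 counts where the gene had none. Foxl1 negative replicates 1 and 2, at 8082 and 12600 CPM of markers, have no count of the genes shown, while Foxl1 positive replicates 1 and 2, at 6470 and 3274 CPM, have counts of each. Of 306 genes at 100 CPM or more in all libraries of the other groups, 55.2% and 27.8% were also at 0 in those Foxl1 negative libraries. The Frzb point of Foxl1 positive replicate 2 rests on 5 counts.

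Foxl1 positive cells were next set against Lgr5 positive stem cells, the neighbouring epithelium. Sfrp1 and Dkk3 were higher in Foxl1 positive cells, and no inhibitor passed the test in the other direction. The mean Sfrp1 level was 5380-fold higher, with a log2 difference of 12.54 ± 1.43 (SE, adjusted p = 0.0162). Dkk3 was called as higher (adjusted p = 0.0164), at a ratio of pooled counts of 37490 (95% counting interval 6727 to 1481000), since Lgr5 positive libraries held 1 count. Calls were thus made for 2 of the 5 inhibitors tested, where 5.72% of all 14259 genes tested were called (4.84% higher, 0.884% lower). Both calls were lost without Foxl1 positive replicate 1 (adjusted p = 0.0789 for each), Foxl1 positive replicate 2 (0.0730 for each), Lgr5 positive replicate 1 (0.0736 for Sfrp1, 0.0509 for Dkk3) or Lgr5 positive replicate 2 (0.0853 and 0.0695), and in each of those fits edgeR called no gene at all, with 1677 to 3960 genes at an unadjusted p under 0.05. Without Foxl1 positive replicate 3, both remained called (0.00524 and 0.00384) and Sfrp5 was called as lower (0.0135), where 22.8% of all genes were called.

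Frzb, Wif1 and Sfrp5 did not pass this test. DESeq2 called each of them (adjusted p = 5.8e-08 for Frzb, 0.00528 for Wif1 and 1.5e-05 for Sfrp5), where it called 24.5% of all genes, and limma on FPKM called Sfrp5 (0.0122), where it called 29.7%. The mean Frzb level in Foxl1 positive cells was at least 1008-fold above the floor of the Lgr5 positive group (adjusted p = 0.0674). For Wif1 the fold was 171 (adjusted p = 0.191). For Sfrp5 the log2 difference was -7.94 ± 1.82 (adjusted p = 0.0557), and pooled counts were 359-fold lower in Foxl1 positive cells (95% counting interval 99.2 to 2962). Of the untested genes, Dkk2 was at least 850-fold and Sfrp4 105-fold higher by group means, each through Foxl1 positive replicate 3. With that Rosa-mTmG library as the sole Foxl1 positive one, a choice made after seeing the data, 7 of 8 inhibitors tested were called, where 54% of all genes were called; the lone library was then assumed to vary like the Lgr5 positive pair.

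Foxl1 positive cells were also set against Differentiated epithelium. Sfrp1, Dkk3 and Frzb were higher in Foxl1 positive cells. Sfrp1 had a ratio of pooled counts of 13830 (95% counting interval 4731 to 67070, adjusted p = 0.0150). The mean Dkk3 level was 4908-fold higher, with a log2 difference of 12.28 ± 1.47 (adjusted p = 0.0125). For Frzb the fold was 301 and the log2 difference 8.23 ± 2.20 (adjusted p = 0.0476). Calls were made for 3 of the 4 inhibitors tested, where 17.8% of all 13876 genes tested were called (10.6% higher, 7.19% lower). DESeq2 called 5 of the 8 it gave an adjusted p, where it called 37.8% of all genes, and the Rosa-mTmG library as the sole Foxl1 positive one gave 7 of 8, where 60.6% of all genes were called. Wif1 averaged 16.9-fold higher without passing the test (adjusted p = 0.217). Notum, too low for the test, was at least 19.5-fold lower in Foxl1 positive cells than in Differentiated epithelium. The mean Dkk2 level was 420-fold above the floor of the Differentiated epithelium group, through Foxl1 positive replicate 3 alone.

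The calls against Differentiated epithelium all rested on both of its libraries. Without replicate 1 the adjusted p was 0.130 for Sfrp1, 0.130 for Dkk3 and 0.304 for Frzb, and without replicate 2 it was 0.107, 0.107 and 0.244, with no gene called by edgeR in either fit and 2329 and 2828 genes at an unadjusted p under 0.05. Without Foxl1 positive replicate 1, Sfrp1 and Dkk3 remained called (0.0397 each) and Frzb did not (0.0714). Frzb also lost its call with no filter on low counts (0.0535) and with limma on FPKM (0.215). A fit of all 10 libraries called no inhibitor against either epithelial group, nor any other gene, with 2244 genes at an unadjusted p under 0.05 against Lgr5 positive cells and 2870 against Differentiated epithelium. Without Foxl1 positive replicate 3, Notum (0.0232) and Sfrp5 (0.0358) were also called, as lower, where 43.9% of all genes were called. The comparisons with Lgr5 positive cells and with Differentiated epithelium share the Foxl1 positive libraries. All 8 mesenchyme markers were called as higher in Foxl1 positive cells in both. So were 3 of 6 smooth muscle and 2 of 5 endothelium markers against Lgr5 positive cells and 5 of 6 and 3 of 5 against Differentiated epithelium. Of 4 T cell markers, 1 was higher against Lgr5 positive cells. Over all genes tested, 4.84% were called as higher against Lgr5 positive cells and 10.6% against Differentiated epithelium. The part of these markers in the inhibitor calls was not tested. Of the mesenchyme markers, Lum had no count in any epithelial library, and every other marker had a count in some of them. Vim was highest there, at 10.1 and 6.40 CPM in Lgr5 positive and 8.31 and 6.24 CPM in Differentiated epithelium libraries.

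The split of calls over all genes differed with limma on FPKM values, which changes the test, filter and scale together. It called 480 genes higher and 3163 lower in Foxl1 positive than in Lgr5 positive cells, against 690 and 126 by edgeR on counts, and 669 higher and 2566 lower than in Differentiated epithelium, against 1467 and 998. Median-of-ratios scaling, as the sole change, gave 732 higher and 89 lower against Lgr5 positive cells and 1425 and 1013 against Differentiated epithelium. It shifted the median log2 difference of all genes to 3.21, against 3.47 with TMM, for Foxl1 positive over Foxl1 negative, to 0.26, against 0.06, for Foxl1 positive over Lgr5 positive, and to 0.00, against 0.12, for Lgr5 positive over Differentiated epithelium. The inhibitors tested kept their direction under every setting tried.

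Within the epithelium, Lgr5 positive cells were set against Differentiated epithelium. Sfrp5 was higher in Lgr5 positive cells, and Wif1 and Notum were lower. The mean Sfrp5 level was 38.7-fold higher, with a log2 difference of 5.28 ± 0.47 (adjusted p = 4.5e-05). For Notum the mean level was 36.5-fold lower, with a log2 difference of -5.47 ± 1.24 (adjusted p = 0.00475). Wif1 averaged 10.1-fold lower at -3.04 ± 1.10 (adjusted p = 0.0380). Calls were made for all 3 inhibitors tested, where 66.3% of the 14534 genes tested were called (34.4% higher, 31.9% lower), so a call here is the common outcome.

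The Sfrp5 and Notum calls held when any of the 4 libraries was left out, with the Notum log2 difference between -10.09 (without Lgr5 positive replicate 1, where the other is at 0) and -4.14 (without Lgr5 positive replicate 2). Both calls were lost in a fit of all 10 libraries (adjusted p = 0.379 for Sfrp5 and 0.497 for Notum). Wif1 lost its call without Differentiated epithelium replicate 1 (adjusted p = 0.323) or replicate 2 (0.123), with DESeq2 (0.0547), and with no filter on low counts (0.0641). DESeq2 called 3 of the 6 inhibitors it gave an adjusted p, Sfrp5, Notum and Sfrp2, where it called 61.3% of all genes, and limma on FPKM called Sfrp5, the 1 inhibitor it tested, where it called 73% of all genes. Wif1 was called by median-of-ratios scaling and when either Lgr5 positive library was left out. Crypt base stem cell markers summed to 5701 and 7913 CPM in Lgr5 positive and 17.6 and 33.2 CPM in Differentiated epithelium libraries. Enterocyte markers summed to 699 and 1096 CPM in Lgr5 positive and 99690 and 84370 CPM in Differentiated epithelium libraries. Sfrp2, with counts in Lgr5 positive replicate 2 alone, was at least 9.05-fold above the floor of the Differentiated epithelium group by its mean.

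**Figure D4:**
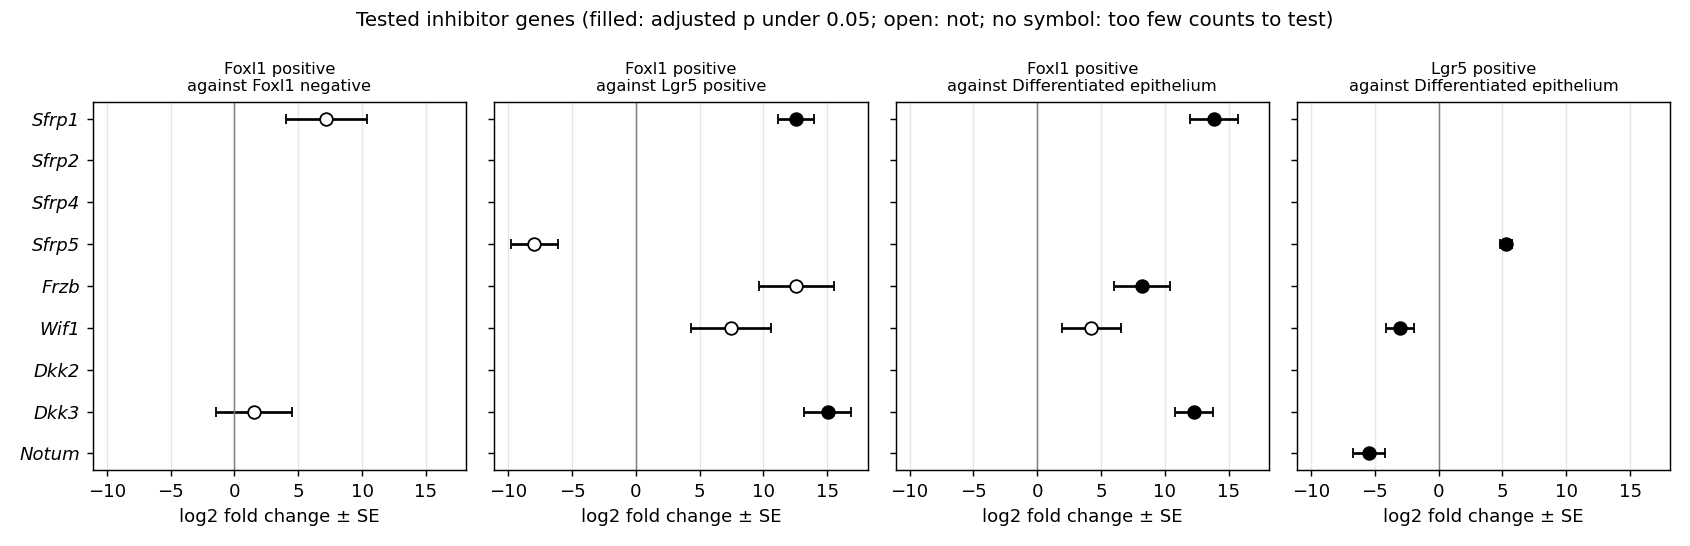
Log2 difference ± SE (horizontal axis) of each inhibitor tested, by comparison, positive where the group named first is higher, with filled symbols for an adjusted p under 0.05. Sfrp1 and Dkk3 are filled in both comparisons of Foxl1 positive cells with epithelium and open against Foxl1 negative cells, and Sfrp5 (5.28) and Notum (-5.47) lie on opposite sides between Lgr5 positive cells and Differentiated epithelium.

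The Wnt ligands that these inhibitors can act on were also read. Of 17 ligand genes in the table, 3 of 7 tested were higher in Foxl1 positive than in Lgr5 positive cells and none was lower, beside 4.84% of all genes called as higher. Wnt5a was at 29.9, 53.3 and 98.5 CPM in Foxl1 positive and 0.725 and 1.05 CPM in Lgr5 positive libraries (log2 difference 6.26 ± 0.92, adjusted p = 0.0206). Wnt2b, a mesenchymal ligand, was at 83.6, 11.3 and 44.4 CPM in Foxl1 positive and 0.604 and 1.26 CPM in Lgr5 positive libraries (5.86 ± 1.24, adjusted p = 0.0475). Wnt4 was also higher (adjusted p = 0.0434). Against Differentiated epithelium, 2 of 6 ligands tested were higher in Foxl1 positive cells, Wnt5a and Wnt2b, beside 10.6% of all genes. Against Foxl1 negative cells 3 of 4 were, beside 42.2%. Foxl1 negative replicate 3, with Dkk3 at 427 CPM, had no Wnt5a count.

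Of 12 Wnt receptor genes, edgeR called none of 10 tested between Foxl1 positive and Lgr5 positive cells, where it called 5.72% of all genes. An unadjusted p under 0.05 was found for 2 of these receptors, beside 3815 of all 14259 genes tested. In Foxl1 positive cells, 3 of 10 were higher than in Differentiated epithelium, beside 10.6% of all genes. Against Foxl1 negative cells, 7 of 8 receptors were higher in Foxl1 positive cells, beside 42.2% of all genes. In Lgr5 positive cells, 7 of 12 were higher and 2 lower than in Differentiated epithelium, beside 34.4% and 31.9% of all genes. Among 11 feedback and target genes of the pathway, 8 of 10 tested were higher in Lgr5 positive cells than in Differentiated epithelium, beside 34.4% of all genes. Axin2, a negative feedback gene, was at 220 and 242 CPM in Lgr5 positive and 70.2 and 63.7 CPM in Differentiated epithelium libraries, and at 134, 55.1 and 1.89 CPM in Foxl1 positive libraries.

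Profiles over the 10 libraries were compared by the mean absolute difference of centred log2(CPM + 1) values, for the 5 inhibitors with a group mean of at least 10 CPM, among 11644 candidate genes. Nearest to Sfrp1 were Itga11 (0.45), Mfap4 (0.58) and Ogn (0.68), and nearest to Dkk3 were Dpt (0.46), Cxcl12 (0.48) and Mfap4 (0.50). Itga11 encodes a collagen-binding integrin subunit, and Mfap4, Ogn and Dpt encode matrix proteins. Nearest to Sfrp5 were Agr3 (0.24), Kifc1 (0.29) and Nme4 (0.30). Agr3 was at 25.9 and 40.2 CPM in Lgr5 positive and 1.09 and 1.26 CPM in Differentiated epithelium libraries, with no count in mesenchymal sorts. For Frzb they were Galntl1 (0.13), Chrdl1 (0.14), which encodes a BMP antagonist, and Chsy3 (0.14), and for Dkk2 Galntl4 (0.06), Cxcl15 (0.08) and Prokr1 (0.10), a likeness that rests on Foxl1 positive replicate 3.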

How the data were processed

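RNA-seq counts per transcript, deposited by the authors for 24082 transcripts of 18594 genes, were analysed with the representative transcript of each gene as marked in the file. The authors' deposited FPKM values, for 29510 transcripts, were used to compare genes within a library. Per the submitters' processing notes, CASAVA 1.8.2, edgeR and build mm9 were used; the aligner, counter and strand setting were not given in the sources used here. Each FPKM equals the count per length over a library-specific denominator (100% of genes within 5%).

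Levels are CPM on 1 TMM scaling of all 10 libraries. Each comparison used edgeR 4.0.16 (R 4.3.3; filterByExpr, robust quasi-likelihood, 2-sided) on the libraries of its 2 groups, with Benjamini-Hochberg adjustment over all genes tested and a threshold of 0.05. DESeq2 1.42.0, limma 3.58.1 on log2(FPKM + 1) and the other settings in the closing section were alternatives. A count of 0 was set against a floor of 3 counts, per library or pooled over the group as stated. Intervals and floors cover counting error only. The code was tested on simulated data. No replicate pair was a copy (chi-square per degree of freedom of at least 153).

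The members and gene lists were chosen with earlier results of these data known. All members were named. Of each pathway list, up to 4 genes with the smallest p could be named, with Foxl1, Lgr5 and markers as checks; for pattern likeness, the 3 nearest genes. Axin2 in the feedback list was chosen after its values were seen.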

Additional observations from a re-analysis of the deposited data

How the results depend on the processing

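None of the inhibitor differences tested changed direction under any alternative run. For single inhibitors, 128 alternatives kept the side of the threshold, 15 moved a difference past it and 30 lost a call. The cause of each change was not tested.

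Inhibitors called between Foxl1 positive and Foxl1 negative cells numbered 0; DESeq2 gave 3, no filter on low counts 2, all 10 libraries in 1 fit 2, and limma on FPKM 1, and leaving out 1 library 0 to 3. Between Foxl1 positive and Lgr5 positive cells there were 2; DESeq2 gave 6, the replicate block 4, the fit of 10 libraries 0, the Rosa-mTmG library alone 7, and leaving out 1 library 0 to 3. Between Foxl1 positive cells and Differentiated epithelium there were 3; DESeq2 gave 5, the fit of 10 libraries 0, the Rosa-mTmG library alone 7, and leaving out 1 library 0 to 5. Between Lgr5 positive cells and Differentiated epithelium there were 3; the fit of 10 libraries gave 0, limma 1, and leaving out 1 library 2 to 4. The runs with the Rosa-mTmG library alone against epithelial groups were chosen after seeing the data. The share of all genes called moved with the setting too. In the order above, edgeR tested 2, 5, 4 and 3 inhibitors and called 42.2%, 5.72%, 17.8% and 66.3% of all genes. DESeq2 called 54.3%, 24.5%, 37.8% and 61.3% of all genes. Limma tested 4, 5, 4 and 1 inhibitors and called 31.9%, 29.7%, 27.8% and 73% of all genes. The counts of inhibitors are to be read beside these shares.

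In the fit of 10 libraries, 2244, 2870 and 1677 genes had an unadjusted p under 0.05 for Foxl1 positive against Lgr5 positive, Foxl1 positive against Differentiated epithelium and Lgr5 positive against Differentiated epithelium; for Foxl1 positive against Foxl1 negative there were 4301 with the replicate block and 13 with the Rosa-mTmG library alone. Over all genes, Foxl1 positive against Foxl1 negative gave 4723 calls, 0 with the replicate block, 0 with the Rosa-mTmG library alone and 4827 to 8240 with 1 library left out. Foxl1 positive against Lgr5 positive gave 816 calls, 3698 with DESeq2, 0 in the fit of 10 libraries, 3643 with limma, 3234 with the replicate block, 8326 with the Rosa-mTmG library alone and 0 to 3304 with 1 library left out. Foxl1 positive against Differentiated epithelium gave 2465 calls, 5845 with DESeq2, 0 in the fit of 10 libraries, 4763 with the replicate block, 9028 with the Rosa-mTmG library alone and 0 to 6242 with 1 library left out. Lgr5 positive against Differentiated epithelium gave 9642 calls, 0 in the fit of 10 libraries and 8473 to 9318 with 1 library left out.

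The labels do not say that a replicate number marks a shared animal, litter or day. For this reason the numbers were not taken to pair libraries. The correlations of same-numbered libraries' deviations from the group means were 0.0589, 0.00978 and 0.0655 between Foxl1 positive and Foxl1 negative. They were -0.00443 and 0.0235 between Foxl1 positive and Lgr5 positive, and -0.151 and 0.0926 between Foxl1 positive and Differentiated epithelium. Between Lgr5 positive and Differentiated epithelium the value was 0.242. With 2 libraries in each of those groups, both pairs must give the same value. These correlations do not decide whether the numbers pair libraries. With the replicate block, Frzb (adjusted p = 0.00883) and Sfrp5 (0.00931) were called between Foxl1 positive and Lgr5 positive cells, and Wif1 was not called between Lgr5 positive cells and Differentiated epithelium (0.0864). Where leaving out a library left 1 in a group, that library was assumed to vary like the other group. The 3-count floor of Foxl1 negative replicate 1, 1.82 CPM, limits what can be said of low inhibitors there.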

Other observations

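Other antagonists of the pathway differed within the epithelium in both directions. Dkk4, a Dickkopf relative that binds the Wnt co-receptors, was at 0.302 and 0 CPM in Lgr5 positive libraries and 2.57 and 1.55 CPM in Differentiated epithelium libraries, a log2 difference of -3.93 ± 1.33 (edgeR, adjusted p = 0.0290). Kremen1, a Dickkopf receptor, was at 13.2 and 14.0 CPM in Lgr5 positive and 44.8 and 32.6 CPM in Differentiated epithelium libraries (adjusted p = 0.00418). Igfbp4, a secreted protein that binds insulin-like growth factors and can bind Wnt co-receptors, was higher in Lgr5 positive cells, at 235 and 174 CPM against 2.76 and 1.78 CPM in Differentiated epithelium. Apcdd1, a membrane antagonist, was also higher in Lgr5 positive cells (adjusted p = 0.0291). Of the 5 antagonists of this list tested, 2 were higher and 2 lower in Lgr5 positive cells, beside 66.3% of all genes called. In Foxl1 positive against Lgr5 positive cells edgeR called none of 4, where it called 5.72% of all genes. At an unadjusted p under 0.05 there were also 0, beside 3815 of all 14259 genes tested.

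Relative to mesenchyme markers, inhibitor levels differed between libraries of the same group. In CPM per 1000 CPM of the summed markers, Sfrp1 stood at 103, 46.5 and 12.4 in Foxl1 positive replicates 1, 2 and 3, against 2.31 in Foxl1 negative replicate 3. Dkk3 stood at 21.0, 49.6 and 9.04 in those Foxl1 positive replicates, against 63.4 in Foxl1 negative replicate 3. Both genes were at 0 in Foxl1 negative replicates 1 and 2, so the Foxl1 negative libraries lay on both sides of the Foxl1 positive ones for Dkk3. These are values of single libraries, with no test.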
